A study of Sus scrofa with 9 samples.

Results

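Transcripts assembled on the strand opposite to a known gene were described in RNA-seq libraries of pig blastocysts. The isoform table assigns each transcript a class code, and code x marks a transcript whose exons overlap a gene on the other strand. By this rule 14605 of 147461 transcripts (9.90%) are antisense, at 7916 loci and under 6084 host gene names. They are compared with transcripts that overlap a gene on its own strand without matching it (code o, called same-strand overlap here, 19659 transcripts), intronic ones (i, 12606), those outside genes (u, 65523) and annotated ones (0, j or c, 34011). Annotated here covers transcripts that match a known one (0), share a splice junction with it as a new splice form (j) or lie within it (c).

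The labels describe 9 samples of pig blastocysts in 3 groups of 3: embryos injected with INO80 siRNA, embryos injected with control siRNA and embryos that were not injected. INO80 is an ATPase that slides and exchanges nucleosomes. A group could be given to 6 libraries of the table, 3 labelled INO80 siRNA and 3 uninjected, and those 6 are used throughout, so an effect of injection itself cannot be told apart from that of the siRNA. The labels conflict here: the samples whose siRNA characteristic is INO80 siRNA are titled as water shams, while the columns named INO80 siRNA match no sample title. Those columns were taken by their name alone and keep its numbers, and the labels do not tell which samples they hold. No label gives a genotype, a strain beyond porcine, the number of embryos in a library or whether replicates are separate pools of embryos. The p-values therefore measure only the spread between these libraries, which may be technical. No strand setting of the library kit or of the read counting is stated, and without one a read from a gene may be credited to its antisense partner or the reverse.

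Natural antisense transcripts are RNAs copied from the strand opposite to a gene, often from a promoter of their own or from one shared with a neighbouring gene. Some act on the gene they overlap: in mouse, Airn silences its host Igf2r on the paternal chromosome and Tsix limits Xist. In budding yeast, chromatin remodellers that include INO80 have been reported to limit noncoding transcription, antisense transcription among it. When both strands are transcribed the products can pair into double-stranded RNA, which enzymes such as ADAR edit and DICER1 cuts.

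Over its annotated transcripts INO80 summed to 1.43, 4.41 and 7.91 FPKM with the INO80 siRNA label, against 0.926, 3.11 and 1.96 FPKM in uninjected libraries. FPKM counts fragments relative to transcript length and library size. The targeted mRNA was thus not lower under the siRNA label (4.58 ± 3.25 against 1.997 ± 1.09 FPKM, SD, n = 3 each; two-sided p by exact permutation = 0.3, where 3 against 3 cannot go below 0.1). Trophectoderm markers were unequal, with KRT18, an epithelial keratin, at 638 to 5980 FPKM and GATA3, a trophectoderm transcription factor, at 7.81 to 49.9 FPKM. KRT19 measured 0.26 to 4.67 FPKM, and CDX2, an early trophectoderm factor, had 4.01 FPKM in INO80 siRNA library 2 and 0.0518 to 0.817 FPKM in the other libraries. The pluripotency factor POU5F1 measured 17.6 to 91.4 FPKM, while SOX2 stayed at or below 0.753 FPKM and the leukocyte marker PTPRC at or below 0.0172 FPKM. LYZ, another of the blood and immune markers, measured 0.347 to 7.735 FPKM. Of genes of the cumulus cells around the oocyte, FST measured 5.78 to 99.98 FPKM and SERPINE2 15.6 to 47.9 FPKM, while STAR stayed at or below 0.566 FPKM. The globin gene HBB had 33.1 FPKM in INO80 siRNA library 2 and at most 1.26 FPKM elsewhere. The part of such cells in the results was not tested. Depth could be read only for the uninjected libraries, whose transcript coverage summed to 3.51 to 3.56 gigabases. There, 1 FPKM stood for 4.57 to 4.82 bases of coverage per exonic base, and antisense transcripts at 1 FPKM or more had a median coverage of 15.7 to 22.9.

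Antisense transcripts were short, spliced and spread over long stretches of genome. Their exonic length had a median of 264 bases (quartiles 246 and 297), and 11039 of them (75.6%) fell between 200 and 300 bases, a window that holds 1.05% of annotated transcripts. The median annotated transcript was 1681 bases long. Of the antisense transcripts, 78.8% had 2 exons, 17.4% had 3 and 3.64% had 4 or more, whereas 78.8% of annotated transcripts had 4 or more. From first to last base they spanned a median of 37580 bases (quartiles 18037 and 60783), against 17420 bases for annotated transcripts. A typical member therefore consists of a pair of short exons joined over a very long gap. Same-strand overlap transcripts had nearly the same shape, with a median of 263 bases, 79.8% with 2 exons and a median span of 47791 bases. Intronic transcripts shared the length (267 bases) but 54.5% of them had 1 exon.

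**Figure D1:**
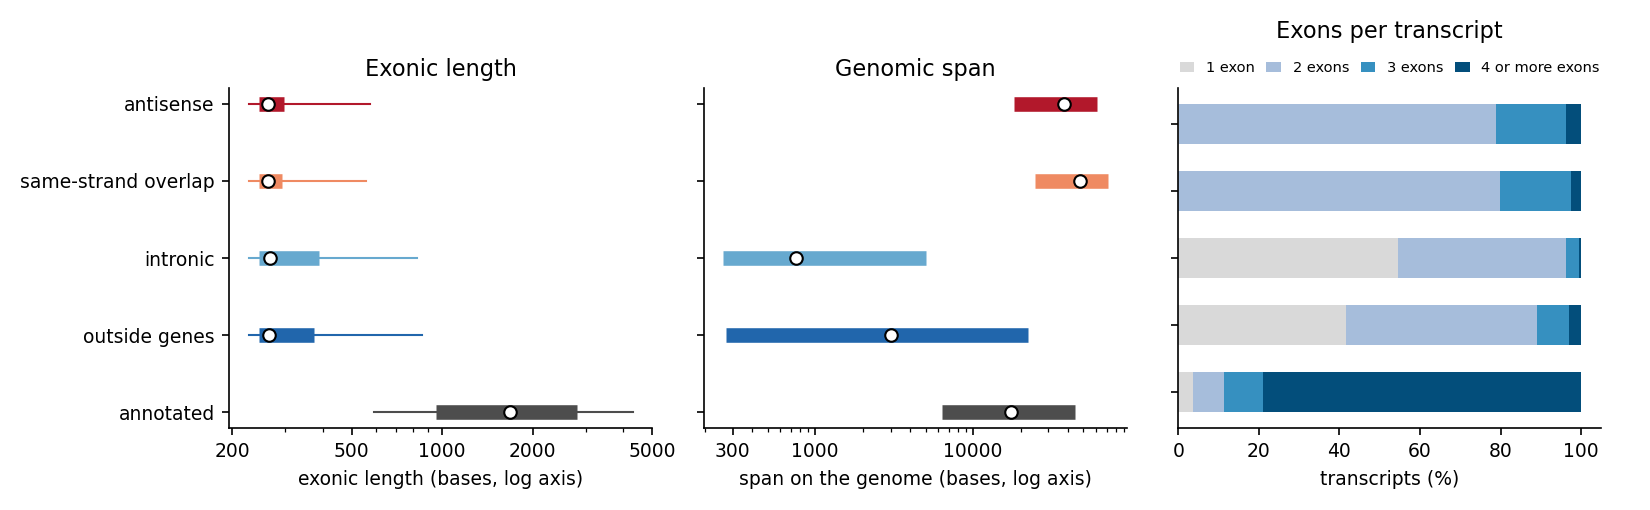
Exonic length (left, bases, log axis; thick bar from quartile to quartile, thin line from the 10th to the 90th percentile), genomic span (middle, bases, log axis; bar from quartile to quartile) and exon number (right, percent of transcripts) for the 5 classes, with medians as open circles. Antisense and same-strand overlap transcripts have nearly the same shape, with median lengths of 264 and 263 bases, while annotated transcripts have a median of 1681 bases and mostly 4 or more exons.

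Strand was uneven. Of the antisense transcripts 9014 lay on the plus strand and 5591 on the minus strand, a share of 61.7% plus. Plus-strand shares were 62.5% for same-strand overlap, 61.5% for intronic and 61.9% for transcripts outside genes, counting those with a strand, and 50.1% for annotated transcripts. On chromosomes 1 to 18 and X the share among antisense transcripts ran between 55.6% on chromosome 18 and 66.7% on chromosome 17. The antisense class requires a strand by its definition, whereas 44.3% of intronic transcripts and 35.5% of those outside genes had none. Of spliced transcripts in those 2 classes 0 lacked a strand, so the rule leaves out 1-exon transcripts that have no strand. That only 19 antisense transcripts had 1 exon thus follows in part from the rule. Among the 602 antisense transcripts of 1000 bases or more, 51.5% were on the plus strand, against 62.2% of the shorter ones.

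Some antisense transcripts had a mirror image on the other strand. A strand twin was defined as a spliced transcript on the other strand with both ends within 50 bases. By this measure 1013 of 14586 spliced antisense transcripts (6.95%) had a twin, and 1008 of those twins were same-strand overlap transcripts. In 177 cases both ends were at the same bases. Of annotated transcripts 3 (0.00916%) had a twin, while shares were 7.10% in the same-strand overlap class, 9.22% among spliced intronic transcripts and 8.37% among those outside genes. Of the 700 twin pairs with a mean of at least 1 FPKM on both strands, the antisense partner was the higher one in 340 (48.6%), and 77 pairs differed by 10 times or more.

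Hosts were many and mostly held few members. Of the 6084 host names 2846 (46.8%) carried 1 antisense transcript and 702 carried 5 or more. The names with the most members belong to small RNA genes that occur in many copies: U6, a spliceosomal RNA, had 235, 5S_rRNA had 35 and 7SK, a regulator of transcript elongation, had 24. Among protein-coding hosts REPS2, an endocytosis adaptor, had 24, EEF2K, the kinase of elongation factor 2, had 21, CDC42BPA had 19, and BCAS3 and BIRC6 had 18 each. Of 2083 hosts named only by a pig Ensembl ID, 791 matched a symbol. Where the host's annotated span was known, for 12888 members, 30.0% lay inside it, 23.2% ran past its 3′ end, 30.0% past its 5′ end and 16.8% beyond both ends. Those reaching beyond both ends had the highest median level of the 4 positions, 3.02 FPKM, and those past the 3′ end the lowest, 2.42 FPKM.

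A fixed list of 68 genes known in human or mouse to have an antisense partner was looked up as well. Of 49 with an annotated transcript here, 18 (36.7%) had an antisense member, close to the 35.5% of all 12287 symbols (4367 of them). The 18 hosts held 27 members. PINK1, a mitochondrial quality-control kinase, had the highest: MSTRG.67865.1 measured 856, 94.1 and 499 FPKM under the INO80 siRNA label, against 392, 314 and 170 FPKM in uninjected ones. HIF1A, the hypoxia factor, had MSTRG.6750.1 at 135, 88.0 and 2.02 FPKM, against 600, 319 and 1.43 FPKM. Values of both ranged widely within each group and the groups overlapped. GNAS, an imprinted gene for a G protein subunit, had MSTRG.40817.1 at 0.278, 0.572 and 41.4 FPKM under the INO80 siRNA label, against 0.0412, 0.333 and 0.111 FPKM, so that a single library set its mean. MEST, also imprinted, had MSTRG.41698.1 at 36.6, 7.59 and 30.5 FPKM, against 143, 0 and 6.61 FPKM. GATA6, a primitive endoderm factor, had a longer member of 935 bases, MSTRG.69061.1, at 3.27, 13.97 and 2.503 FPKM, against 4.51, 15.8 and 21.2 FPKM.

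Antisense transcripts made up a modest share of each library. Weighted by length, they held 4.70%, 4.03% and 6.84% of the signal in the libraries labelled INO80 siRNA, against 4.54%, 5.40% and 3.03% in uninjected libraries. The groups overlapped (5.19% ± 1.47 against 4.32% ± 1.20, SD, n = 3 each; two-sided p by exact permutation = 0.5), and without INO80 siRNA library 3 the difference was 0.0393 percentage points in place of 0.865, without uninjected library 3 it was 0.218, and it was 1.44 without INO80 siRNA library 2 and 1.41 without uninjected library 2. In libraries as bulk as these, fewer cells of a type and less RNA per cell cannot be told apart.

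More antisense transcripts reached 1 FPKM under the INO80 siRNA label. The shares were 57.6%, 59.7% and 68.4% there, against 55.0%, 57.4% and 48.8% in uninjected libraries. Every library labelled INO80 siRNA lay above every uninjected one, by a narrow margin between the closest (61.9% ± 5.75 against 53.7% ± 4.45, SD, n = 3 each; two-sided p by exact permutation = 0.1, the smallest possible). Same-strand overlap transcripts differed in the same direction, at 64.1% ± 5.18 against 55.8% ± 4.39 (exact p = 0.1). Annotated transcripts stood at 33.1% ± 3.13 against 35.3% ± 1.64 (exact p = 0.3). The antisense difference of 8.17 percentage points was 4.91 without INO80 siRNA library 3 and 5.69 without uninjected library 3. At 5 FPKM or more the groups overlapped, with 25.3%, 25.8% and 38.2%, against 24.6%, 28.6% and 16.8% (exact p = 0.4). The difference at 1 FPKM was 3.49 after quantile normalization and 11.5 after scaling libraries to the same annotated median.

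Antisense transcripts were detected more often than intronic ones and those outside genes in each library. Relative to intronic transcripts of the same library, the share at 1 FPKM or more was 9.88 percentage points higher (SD 4.30; higher in 6 of 6 libraries; two-sided exact paired permutation p = 0.03125, the smallest that 6 pairs allow). Among transcripts with 2 or more exons the difference was 0.221 points (exact p = 0.781), no larger than the spread of the libraries. Relative to transcripts outside genes the excess was 8.53 points (SD 2.02) and relative to annotated transcripts 23.6 points (SD 6.60), both in 6 of 6 libraries with the same exact p and not restricted by exon number. Antisense transcripts enter the table by assembly, whereas annotated ones include known transcripts listed at 0, as for IL13RA2 below. The test against annotated transcripts therefore cannot tell higher detection from the way the classes were made. Antisense transcripts were detected slightly less often than same-strand overlap ones, by -2.14 points (SD 0.368), in 6 of 6 libraries and with the same exact p.

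**Figure D2:**
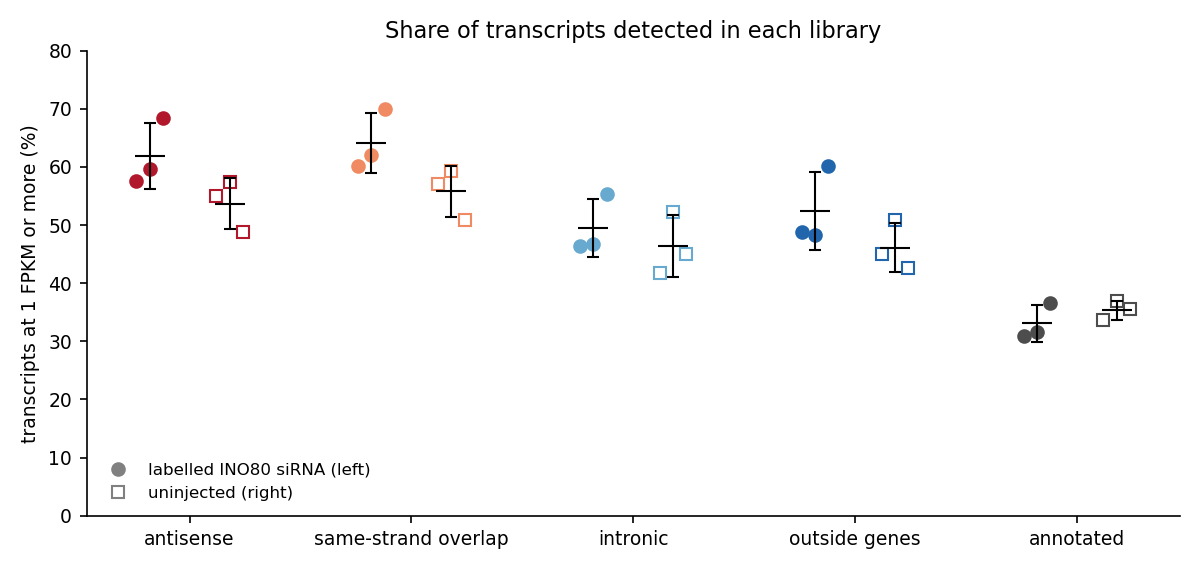
Share of transcripts at 1 FPKM or more (percent, vertical axis) for the 5 classes, with 1 point a library, filled for the 3 labelled INO80 siRNA (left) and open for the 3 uninjected (right); bars show mean and SD. Antisense shares are 57.6% to 68.4% in the libraries labelled INO80 siRNA and 48.8% to 57.4% in uninjected ones.

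Levels of antisense transcripts correlated weakly between libraries. Across the 11260 with a mean of at least 1 FPKM, Pearson's r of log2(FPKM + 1) averaged 0.397 between libraries of a group and 0.387 between libraries of different groups. For 13496 annotated transcripts the same averages were 0.732 and 0.733. These are correlations across transcripts, which are not independent replicates and differ in length between the classes. Same-strand overlap transcripts had 0.394 and 0.387. A library of the same group was therefore hardly closer than one of the other group in any of these 3 classes. Of the 11260, 35.7% were listed at 0 in at least 1 library, against 28.7% of annotated transcripts at that level. Antisense transcripts of 1000 bases or more had a mean r of 0.486 between libraries over 345 transcripts, against 0.389 for the shorter ones.

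The highest antisense transcripts show this spread. MSTRG.25698.1, opposite MCM3AP, an mRNA export factor, measured 1969, 1132 and 1319 FPKM under the INO80 siRNA label, against 1627, 1280 and 680 FPKM in uninjected ones. The transcript opposite HHIP, a Hedgehog inhibitor (MSTRG.79150.1), had 1464, 630 and 1442 FPKM, against 1231, 1952 and 783 FPKM. Both were high in all 6 libraries with overlapping groups. MSTRG.5600.2, opposite the phosphatase gene PHLPP1, had 4.94, 2.10 and 12.3 FPKM, against 2170, 0.476 and 0.617 FPKM. MSTRG.47363.1, opposite the transcription factor gene MEF2C, had 1706, 1489 and 19.1 FPKM, against 370, 126 and 49.6 FPKM. MSTRG.54251.1, opposite the profilin gene PFN4, had 717, 0 and 396 FPKM, against 622, 960 and 408 FPKM. The first of these 3 stands on a single uninjected library, and the last is listed at 0 in 1 library and at 396 to 960 FPKM in all others. Their hosts were low: sense levels averaged 1.60 FPKM for MCM3AP, 0.312 FPKM for HHIP, 0.348 FPKM for MEF2C, 0.029 FPKM for PFN4 and 0.661 FPKM for PHLPP1. Among 10209 members at 1 FPKM or more with an annotated host transcript across from them, 4106 (40.2%) had a host mean below 1 FPKM.

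Of the 14605 antisense transcripts 12350 averaged at least 1 FPKM in either group and were tested. Of these 3 changed between groups (0.0243%), beside 6 of 104522 transcripts in the whole table, or 0.00574%. The test was limma on log2(FPKM + 1), with Benjamini-Hochberg adjustment over all 104522 and a threshold of 0.05. With so few calls the shares are not set against each other. Groups that do not overlap were seen in the higher direction for 1091 antisense transcripts (8.83%), beside 7.9% of all transcripts, and in the lower direction for 231 (1.87%), beside 2.72%. At an unadjusted limma p below 0.05, 517 were higher (4.19%, beside 3.47% of all) and 132 lower (1.07%, beside 1.08%). The antisense shares are thus near the background in both directions. The split of those 517 and 132 leans on scaling, and so does that of all transcripts. After quantile normalization 381 were higher (3.09%, beside 2.43% of all) and 240 lower (1.94%, beside 2.03%). After scaling libraries to the same annotated median 782 were higher (6.33%, beside 5.29%) and 96 lower (0.777%, beside 0.766%). Without uninjected library 3 the split was near even, at 303 higher (2.45%, beside 2.09%) and 273 lower (2.21%, beside 1.95%). The median log2 difference was 0.35 among antisense transcripts and 0.25 among all, 0.09 and -0.01 after quantile normalization, and 0.54 and 0.46 after scaling, so antisense transcripts lay slightly above all transcripts on each scale. It was 0.15 and 0.04 without INO80 siRNA library 3, and 0.20 and 0.11 without uninjected library 3. With all libraries and no scaling, medians were 0.37 for same-strand overlap transcripts, 0.38 for those outside genes, 0.26 for intronic ones and -0.21 for annotated ones. The antisense median thus did not exceed that of the same-strand overlap class or of transcripts outside genes.

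The called antisense transcripts opposite IL13RA2, which encodes a receptor that binds interleukin 13 as a decoy, lay in a single locus on chromosome X and changed in opposite directions. MSTRG.89799.2 (X, 108959563 to 108988902, plus strand, 2 exons, 221 bases) had 534, 488 and 769 FPKM with the INO80 siRNA label and was listed at 0 without injection. MSTRG.89799.3 (108959565 to 108968973, 2 exons, 248 bases) had 0.097, 0.170 and 1.19 FPKM, against 568, 909 and 454 FPKM. The transcripts start 2 bases apart, and in every library 1 of them carries almost all of the signal. Their limma differences were 9.20 (SE 0.63, adjusted p = 0.0159), a size that the pseudocount sets where a group is listed at 0, and -8.77 (SE 0.67, adjusted p = 0.02). Summed over both, the locus had 534, 489 and 770 FPKM, against 568, 909 and 454 FPKM (598 ± 151 against 644 ± 237, SD, n = 3 each), and the groups overlapped. In limma on loci the difference was -0.07 (SE 0.50, adjusted p = 0.975). IL13RA2 itself was at or near 0: its longer annotated transcript was listed at 0 in 5 libraries and at 0.129 FPKM in INO80 siRNA library 3. In each of the 6 fits that left out 1 library 0 antisense transcripts were called by limma, with adjusted p-values of these 2 between 0.118 and 0.204 there.

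The third call lay opposite STC1, the gene of the secreted calcium and phosphate regulator stanniocalcin 1. MSTRG.25991.2 (chromosome 14, 8811362 to 8849180, plus strand, 2 exons, 287 bases) had 150, 173 and 529 FPKM under the INO80 siRNA label, and was listed at 0 in all 3 uninjected libraries. Its limma difference was 7.91 (SE 0.74, adjusted p = 0.0375), and adjusted p ran between 0.0118 and 0.229 over 14 alternatives. The neighbouring member of the locus, MSTRG.25991.1 (8743668 to 8811635, 278 bases), overlaps its start and had 104, 98.6 and 426 FPKM, against 239, 124 and 62.3 FPKM. It was present in all 6 libraries and the groups overlapped. The sum over the locus was 255, 272 and 955 FPKM, against 239, 124 and 62.3 FPKM, which leaves the groups apart by a small gap (locus limma 1.71, SE 0.73, adjusted p = 0.843). Annotated STC1 was listed at 0 in 5 libraries and at 0.129 FPKM in INO80 siRNA library 2.

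Other members with the smallest p did not pass the test, and some lay beside a member that differed in the opposite direction. Opposite BBX, a gene of an HMG-box transcription factor, MSTRG.24105.1 (chromosome 13, 160749983 to 160826087, 3 exons) had 37.4, 26.7 and 72.0 FPKM under the INO80 siRNA label and was listed at 0 in uninjected ones (limma adjusted p = 0.172). MSTRG.24105.3 (160749985 to 160826093, 2 exons) had 0.134, 0 and 2.23 FPKM, against 30.2, 72.7 and 21.9 FPKM (adjusted p = 0.352). The 2 share both ends within 6 bases, and their sum of 37.6, 26.7 and 74.3 FPKM, against 30.2, 72.7 and 21.9 FPKM, overlapped between groups. Opposite QSER1, a gene tied to protection of promoters from DNA methylation, MSTRG.44610.2 was listed at 0 in the libraries labelled INO80 siRNA, against 12.2, 24.3 and 10.8 FPKM (adjusted p = 0.275). MSTRG.44610.3, which ends 3 bases away, went the other way, with 15.6, 56.5 and 153 FPKM, against 0.0174, 0 and 0.959 FPKM. Opposite SMARCA2, the gene of a SWI/SNF ATPase, MSTRG.7590.2 had 79.95, 29.2 and 303 FPKM and was listed at 0 in uninjected libraries (adjusted p = 0.209), while MSTRG.7590.1 with the same end to within 1 base had 33.7, 33.3 and 59.7 FPKM, against 47.5, 41.4 and 29.1 FPKM. There the locus sum was also apart between groups (180 ± 161 against 39.3 ± 9.39 FPKM, n = 3 each; locus limma adjusted p = 0.843).

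Members opposite SERF1A, SULF1 and CLEC2D complete those with the smallest p. SERF1A, the gene of a small protein that speeds amyloid aggregation, had MSTRG.37364.9 at 27.1, 38.8 and 57.0 FPKM under the INO80 siRNA label, against 0.845, 0.686 and 0.747 FPKM (limma difference 4.52, SE 0.67, adjusted p = 0.24). SULF1, the gene of a heparan sulfate sulfatase, had MSTRG.57189.1 at 0.0954, 0 and 0.118 FPKM, against 18.1, 34.7 and 17.1 FPKM (difference -4.43, SE 0.66, adjusted p = 0.24). CLEC2D, the gene of a lectin ligand of natural killer cells, had MSTRG.62756.6 at 0, 0.0757 and 0 FPKM, against 17.4, 24.4 and 6.90 FPKM (difference -3.92, SE 0.70, adjusted p = 0.376). In each the groups were far apart without passing the test. At locus level SULF1 antisense summed to 12.8, 5.37 and 6.64 FPKM, against 20.8, 35.1 and 26.2 FPKM, and limma gave -1.66 (SE 0.64, adjusted p = 0.843). In the locus of the SERF1A member, MSTRG.37364.6 differed in the same direction, with 27.5, 39.6 and 58.5 FPKM, against 9.61, 5.01 and 4.54 FPKM. That locus summed to 83.6, 95.1 and 132 FPKM, against 29.7, 22.9 and 17.8 FPKM (locus limma 2.10, SE 0.58, adjusted p = 0.843). The CLEC2D locus gave -1.59 (SE 0.64, adjusted p = 0.843). Over all antisense loci 0 of 7196 were called on their sums by limma, beside 2 of 74019 locus sums of all classes (0.0027%). At an unadjusted p below 0.05, 306 were higher (4.25%, beside 3.67% of all locus sums) and 68 lower (0.945%, beside 1.07%), near the background in both directions.

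**Figure D3:**
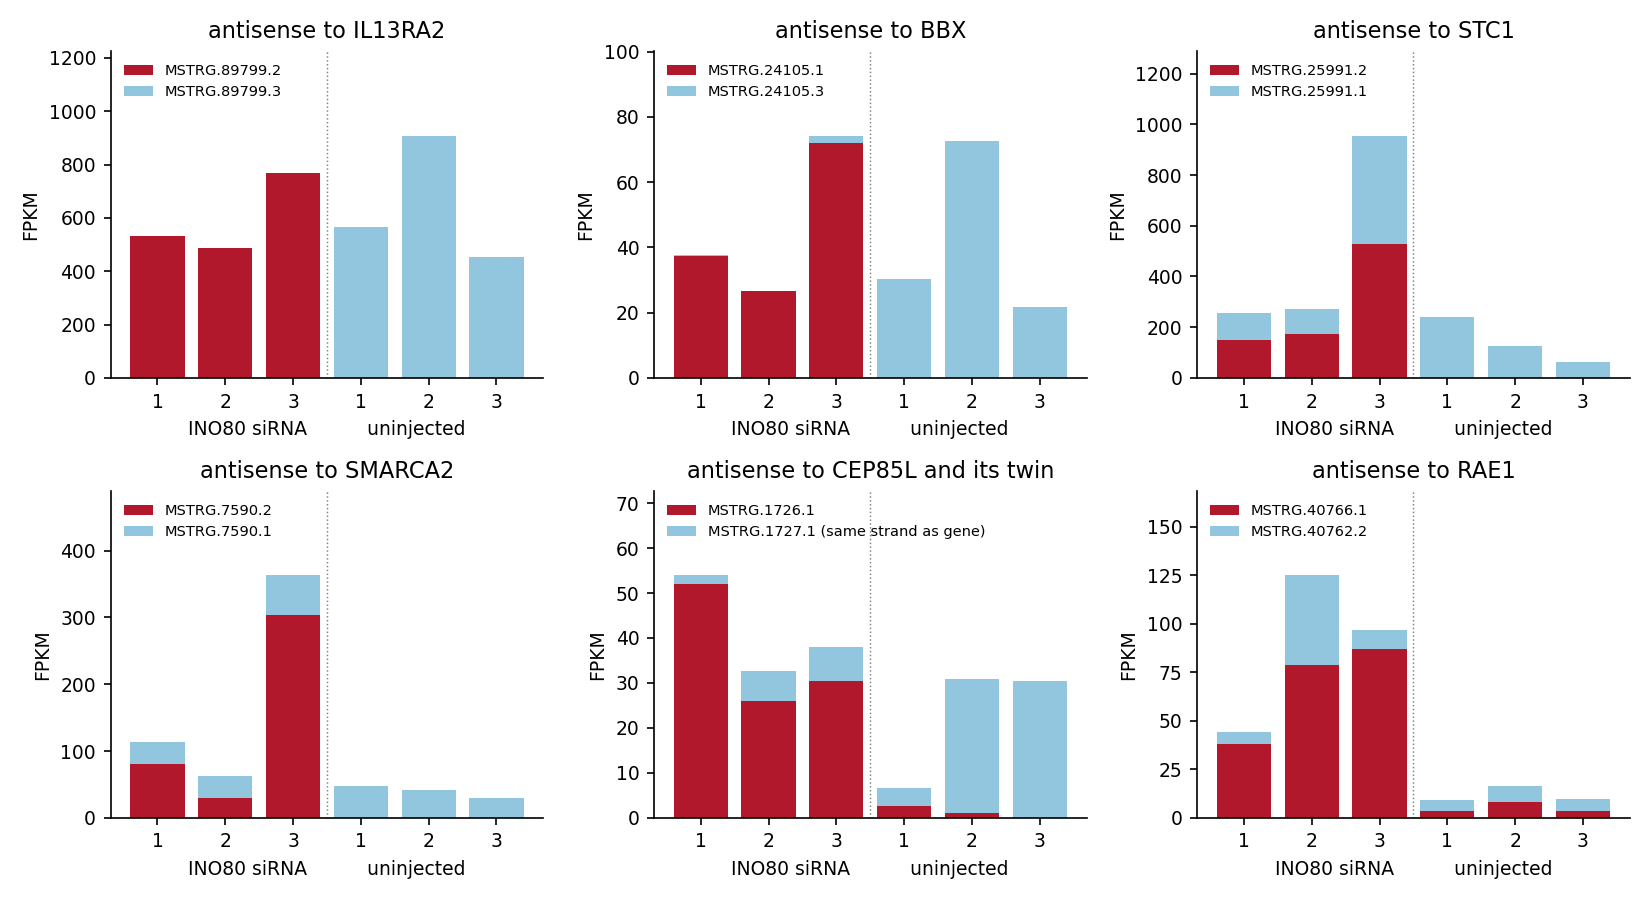
FPKM (vertical axis) in each of the 3 libraries labelled INO80 siRNA and the 3 uninjected libraries, stacked for a pair of transcripts at each of 6 loci; all are antisense except MSTRG.1727.1, the strand twin at CEP85L. Opposite IL13RA2 and BBX the colour changes between groups while bar heights overlap, and opposite RAE1 the bars are higher in the libraries labelled INO80 siRNA.

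Such sharing of ends was common. Of the 14605 antisense transcripts 6791 (46.5%) shared 1 end within 10 bases with another member of their locus. Pairs that share both ends within 10 bases were not counted here. Over the 3273 such pairs with both at 1 FPKM or more, the median Pearson's r across the 6 libraries was 0.00, and 50.3% of pairs were positive. Near-identical pairs on 1 strand, with both ends within 50 bases as at BBX, numbered 935 and involved 1563 members (10.7%). In 510 of them with both at 1 FPKM or more the median r was 0.18 (60.0% positive). In 2 of the 510 pairs the groups were apart in opposite directions, and in 5 in the same direction. Among single transcripts of all classes 7.9% were apart in the higher direction and 2.72% in the lower. No such share was computed for pairs of other classes, so these counts are a description only.

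CEP85L, which encodes a centrosomal protein, had an antisense transcript with a strand twin. MSTRG.1726.1 (chromosome 1, 48730566 to 48822529, minus strand, 2 exons, 265 bases) had 51.9, 25.9 and 30.4 FPKM under the INO80 siRNA label, against 2.54, 1.04 and 0 FPKM. The groups were well apart, and the difference of 4.20 (SE 0.76) did not pass the limma test (adjusted p = 0.378). The host's annotated transcript runs from 48621907 to 48789033 on the plus strand, so the antisense transcript begins beyond the host's 3′ end and ends inside it. Its twin on the plus strand, MSTRG.1727.1 (48730581 to 48822532), had 1.97, 6.66 and 7.60 FPKM, against 4.12, 29.9 and 30.5 FPKM. The twin was low wherever the antisense transcript was high, and uninjected library 1 was low in both. The sum of the pair was 53.9, 32.6 and 38.0 FPKM, against 6.66, 30.9 and 30.5 FPKM. On that sum the limma difference was 1.07 (adjusted p = 0.828), and the sums did not overlap between groups (exact p = 0.1), by a small gap except for uninjected library 1, which was far below the rest. The annotated CEP85L transcript had 1.94, 1.22 and 1.55 FPKM, against 2.43, 0.0896 and 1.23 FPKM, and the second antisense transcript MSTRG.1726.2 stayed at or below 3.53 FPKM.

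RAE1, which encodes an mRNA export factor, had an antisense transcript with no strand twin. MSTRG.40766.1 (chromosome 17, 64924551 to 64993522, minus strand, 2 exons, 368 bases) had 38.2, 78.6 and 87.1 FPKM under the INO80 siRNA label, against 3.55, 7.95 and 3.78 FPKM. Every library of the first group was far above every library of the second. The difference of 3.49 (SE 0.71) did not pass the limma test (adjusted p = 0.579, with 0.287 to 0.912 over 14 alternatives). RAE1 ends at 64932168 on the plus strand, so the antisense transcript begins beyond its 3′ end and ends inside the gene. Annotated RAE1 summed to 20.96, 21.8 and 31.5 FPKM under the INO80 siRNA label, against 32.1, 32.3 and 36.4 FPKM, so the groups were apart in the other direction by a small gap (24.7 ± 5.85 against 33.6 ± 2.40, SD, n = 3 each; two-sided p by exact permutation = 0.1). Across the 6 libraries Pearson's r of the antisense with the sense level was -0.67. The other RAE1 member, MSTRG.40762.2 (64918513 to 64920588, 706 bases), lies within the gene and had 6.34, 46.4 and 9.92 FPKM, against 5.73, 8.58 and 5.81 FPKM, with a single high library.

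Antisense levels ran with the sense levels of their hosts about as often as against them. A host's annotated transcripts overlapping the member were summed, which paired 13285 members, and 6103 pairs averaged at least 1 FPKM on both sides. Over the 6 libraries the median Pearson's r was 0.02 (quartiles -0.33 and 0.37), and 51.4% of pairs were positive. Each r rests on 6 libraries that share depth and normalization between the members of a pair. Strong values came in near-equal numbers, with 197 pairs above 0.8 and 164 below -0.8. Same-strand overlap transcripts had a median r of 0.02 with their hosts over 7898 pairs and intronic ones 0.06 over 3256. Position made little difference, with medians of 0.02 inside the host, 0.03 past its 3′ end and 0.02 past its 5′ end. Antisense transcripts of 1000 bases or more had a median of 0.15 over 208 pairs (63.9% positive). Strand twins had a higher one, 0.32 over 700 pairs, with 71.0% positive.

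**Figure D4:**
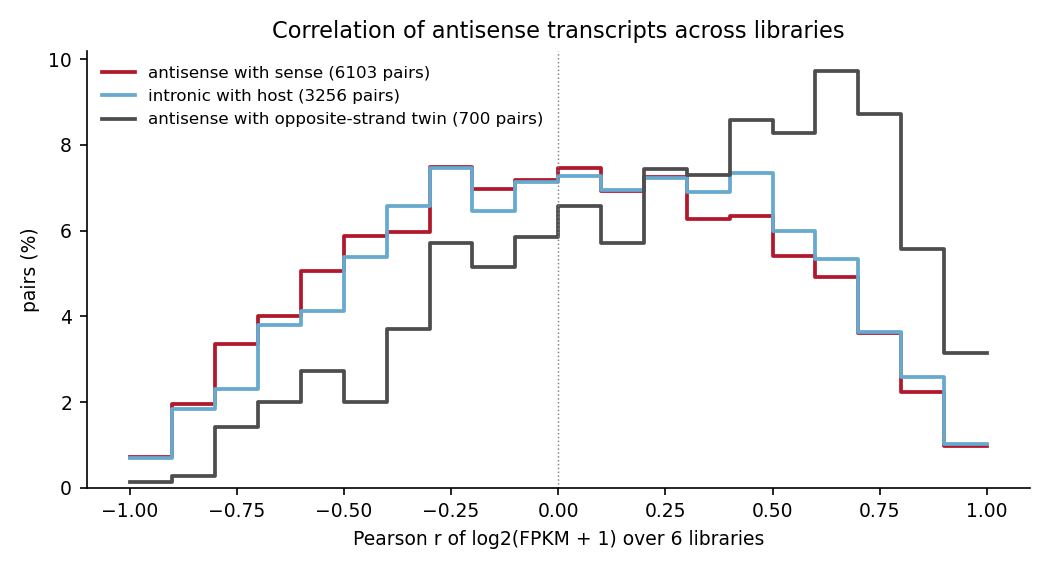
Distribution of Pearson's r of log2(FPKM + 1) over 6 libraries (horizontal axis, bins of 0.1) as percent of pairs (vertical axis) for antisense transcripts with their sense host (6103 pairs), intronic transcripts with their host (3256) and antisense transcripts with their strand twin (700). The first 2 centre near 0 with medians of 0.02 and 0.06, and the third lies to the right with a median of 0.32.

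Single pairs illustrate both ends of this range, chosen for their r and given as a description. MSTRG.21989.1, opposite SERP1, a gene of endoplasmic reticulum stress, had 20.1, 94.8 and 76.4 FPKM under the INO80 siRNA label, against 99.8, 74.4 and 50.2 FPKM. Its host had 46.8, 153 and 109 FPKM, against 138, 141 and 89.2 FPKM, and r was 0.97. Both were lowest in INO80 siRNA library 1. MSTRG.10316.2, opposite EPRS, a gene of a transfer RNA synthetase, had 10.4, 4.90 and 14.6 FPKM, against 6.43, 3.47 and 0.0245 FPKM. EPRS itself had 14.3, 15.5 and 12.8 FPKM, against 16.7, 21.6 and 30.9 FPKM, and r was -0.97. MSTRG.70522.4, opposite the lipid carrier gene OSBPL9, reached r = -0.98 mainly through INO80 siRNA library 2, where it had 9.76 FPKM and was at or below 1.07 FPKM in all others.

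Relative to their hosts, antisense transcripts stood higher in each library labelled INO80 siRNA than in any uninjected one. The median log2 difference of antisense from sense over the 6103 pairs, on the log2(FPKM + 1) scale, was -0.62, -0.47 and -0.34 there, against -0.95, -0.89 and -1.35 in uninjected libraries. The groups were apart by 0.58 (two-sided exact permutation p = 0.1, the smallest possible), and leaving out 1 library gave 0.44 to 0.67. The difference was 0.89 with a pseudocount of 0.1 and 0.80 for pairs of at least 5 FPKM, each with exact p = 0.1. Median sense levels were 3.73, 3.54 and 5.23 FPKM, against 4.44, 5.34 and 5.13 FPKM, and median antisense levels 2.46, 2.68 and 4.60 FPKM, against 2.21, 2.75 and 1.52 FPKM. Same-strand overlap transcripts had a difference of 0.55 and intronic ones of 0.36 relative to their hosts, each with exact p = 0.1. The antisense difference exceeded that of the same-strand overlap class by 0.04 (exact p = 0.3), within the spread of the libraries. Over all libraries the antisense level was above the sense level in 2607 of the 6103 pairs (42.7%). This share holds only for hosts at 1 FPKM or more. It leaves out 4106 members at 1 FPKM or more whose host was below 1 FPKM, all of which lay above their host.

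**Figure D5:**
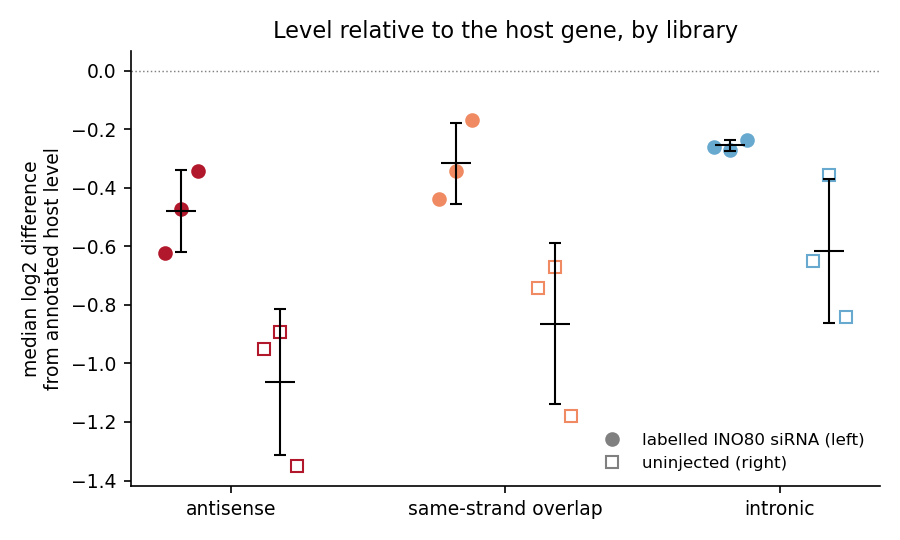
Median log2 difference of transcript level from the annotated level of the host gene (vertical axis, log2(FPKM + 1) scale) in each of the 3 libraries labelled INO80 siRNA (filled, left) and the 3 uninjected ones (open, right), for antisense, same-strand overlap and intronic transcripts; bars show mean and SD. Antisense values are -0.62 to -0.34 in the libraries labelled INO80 siRNA and -1.35 to -0.89 in uninjected ones, and the other classes differ in the same direction.

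Long antisense transcripts formed a small group of their own. The 602 of 1000 bases or more (4.12%) had a median of 3 exons, and 9 had a strand twin. Their median level was 1.20 FPKM, against 2.82 FPKM for the shorter ones. By limma 0 of the 424 tested were called, and at an unadjusted p below 0.05, 2 were higher (0.472%) and 3 lower (0.708%). Beside them stand 3.47% and 1.08% of all transcripts, and 0.77% and 1.63% of annotated ones. Counts of 2 and 3 are too few to set these shares against each other. CHIT1, a chitinase gene, had a member of 5109 bases and 3 exons, MSTRG.85458.2, at 1.97, 0.631 and 3.51 FPKM under the INO80 siRNA label, against 0.628, 0.703 and 4.23 FPKM. HELQ, a DNA helicase gene, had a member of 8 exons and 2591 bases, MSTRG.80849.4, at 0, 18.3 and 0 FPKM, against 0 in every uninjected library. It thus appeared in a single library.

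Genes that bind, edit or degrade double-stranded or antisense RNA were followed as a fixed list of 55. Of their annotated transcripts 89 from 46 genes were tested and 0 were called by limma (lowest adjusted p = 0.827), with 0 higher and 2 lower at an unadjusted p below 0.05, where 0.77% of all annotated transcripts were higher and 1.63% lower. Their median log2 difference was -0.11, beside -0.21 for all 16102 annotated transcripts tested. ADAR, which edits double-stranded RNA, had 0.650, 0.458 and 0.819 FPKM under the INO80 siRNA label, against 0.382, 1.16 and 0.761 FPKM. DICER1, which cuts it, had 0.765, 2.47 and 6.32 FPKM, against 3.94, 2.39 and 6.17 FPKM. Both overlapped between groups. INTS3, a subunit of the Integrator complex that ends many noncoding transcripts, had 0.385, 0.491 and 1.61 FPKM, against 3.02, 4.23 and 5.59 FPKM, which did not overlap. Nor did ZCCHC8, with 3.02, 3.45 and 4.28 FPKM, against 5.19, 11.8 and 5.01 FPKM. EXOSC8 was apart by a small gap, with 27.6, 48.6 and 41.9 FPKM, against 52.3, 49.0 and 55.0 FPKM. The share of all genes with groups apart on such sums was not computed. Antisense members were listed for 20 of the 55 genes, where 35.5% of all symbols with an annotated transcript had one.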

How the data were processed

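The authors deposited an isoform table with FPKM, coverage signal, position, length and exon number per transcript. Per the submitters' processing notes, the tools were HISAT2, StringTie, fastp, edgeR, ChIPseeker and HOMER; no order, version or strand mode is given in the sources used here. The notes name GRCh38.p10, a human build, for pig data, so positions are those of the table, and its pig build is not given. Groups were defined by the siRNA characteristic. Uninjected columns were matched by sample title, and INO80 siRNA columns by their name alone, since no title matches them. Columns named for a water sham match titles whose characteristic is INO80 siRNA and were left out for this conflict; in all, 3 FPKM columns and 6 coverage columns were not used. No column used is named for control siRNA, and which samples the INO80 siRNA columns hold cannot be told from the labels. Since the table holds no counts, depth is given only through the deposited coverage, and no counting interval is possible.

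Members were the transcripts with class code x. The two-sided test was limma 3.58.1 (R 4.3.3), with robust moderation and a trend, of log2(FPKM + 1), INO80 siRNA minus uninjected. It covered 104522 transcripts of all classes whose mean reached 1 FPKM in either group. The scale understates fold changes of low transcripts. For single values, exact permutation tests over libraries were used. Sense levels were sums of annotated transcripts with the same gene name, on the same chromosome and overlapping the member. Named transcripts were the hosts CEP85L and RAE1, all calls, the 10 highest levels, the 5 smallest p in each direction without overlap of groups, the 5 most extreme r in each direction, the longest, those with most exons and the known antisense hosts; only examples are described. ADAR, DICER1, INTS3, ZCCHC8 and EXOSC8 fall outside that rule. So do the transcripts MSTRG.25991.1, MSTRG.44610.3, MSTRG.7590.1, MSTRG.37364.6 and MSTRG.1727.1. All of these were chosen once their values had been seen. Members and lists were chosen with earlier results of these data known. The code was tested on simulated data. Alternatives were another pseudocount, filter, normalization, definition of sense, twin distance or exon minimum, the replicate block and leaving out each library; locus sums, twin sums, long members, scaling of detection and all twin settings were chosen after seeing the data. Python 3.11.15, pandas 2.3.3 and matplotlib 3.10.9 served for reading and plotting.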

Additional observations from a re-analysis of the deposited data

How the results depend on the processing

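The 3 antisense calls of 6 in all stayed 3 without the trend (6 in all), at a minimum of 5 FPKM (8), with a filter on the overall mean (6), after quantile normalization (6) and after scaling (6), and 3 with twins summed. With a pseudocount of 0.1 they were 6 of 24, and with no filter 0 of 0. Summing over a locus gave 0 of 2. Leaving out 1 library gave 0 antisense calls and 0 in all in each of the 6 fits, with 2.45% to 5.14% of antisense transcripts higher and 0.685% to 2.21% lower at an unadjusted limma p below 0.05, beside 2.09% to 4.12% and 0.712% to 1.95% of all. With the replicate number of the columns as a block 0 antisense transcripts and 0 in all were called (501 higher, 4.06% beside 3.23% of all, and 148 lower, 1.20% beside 1.09%, at an unadjusted p below 0.05). Libraries of the same number had correlations of 0.0021, -0.028 and -0.025 in their deviations, and those of different numbers -0.024 to 0.053. No pairing by number was seen, though a weak one could be missed. The excess over intronic transcripts was 0.221 points with 2 or more exons (exact p = 0.781). That minimum leaves out the 54.5% of intronic transcripts with 1 exon and raises the median intronic span from 757 to 5959 bases. Without 1 library the excess was 9.21 to 11.1 points, where 5 pairs cannot go below 0.0625. The median r with sense was 0.075 after subtracting group means, 0.15 for members of 1000 bases or more and -0.028 to 0.059 without 1 library. With twins it was 0.26 by Spearman's rho and 0.24 to 0.39 without 1 library. Fits without 1 library rest on fewer samples; the cause of the other moves was not tested. Differences in share of signal, ratio and detection kept their direction under every alternative run, though detection groups overlapped at 5 FPKM. For ratio and for detection at 1 FPKM the groups do not overlap, so leaving out 1 library could not reverse them. The share of signal differed by only 0.0393 points without INO80 siRNA library 3. Fold changes of 14 named transcripts kept their sign in all fits, with 24 calls lost and 2 gained. Most of these transcripts were picked for groups that do not overlap, so leaving out 1 library could not reverse their sign. Settings of trend, filter and block leave the fold change as it is. The kept sign is therefore no sign of stability. Precision is limited by 3 libraries a group and by a coverage of about 4.57 to 4.82 at 1 FPKM.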
